A study of Mus musculus with 4 samples.

Results

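The unfolded protein response genes described here are 30 mouse genes, chosen by symbol, of the 55450 genes in the count matrices. Their symbols matched 31 gene rows, because Ddit3 has a second identifier, whose row holds 0 unique molecular identifiers (UMIs, each standing for 1 captured RNA molecule) and was not used. The study dissociated the mid-colon of specific-pathogen-free mice aged 7 weeks and captured single cells on a droplet platform that reads the 3′ end of poly(A) RNA. Mice of the control group drank clean water, and mice of the DSS group drank water with 3% dextran sulfate sodium (DSS), a polymer that damages the lining of the colon, each for 2 days. There are 2 control and 2 DSS libraries, called control 1, control 2, DSS 1 and DSS 2. The sources used here name no strain. No label says whether a group's libraries came from separate animals, and the p-values therefore describe only how far these libraries vary, and that variation may be technical.

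The endoplasmic reticulum (ER) is where secreted and membrane proteins are folded, and cells that secrete much, such as antibody-making plasma cells and mucus-making goblet cells, depend on its folding capacity. When unfolded protein builds up there, 3 sensors in the ER membrane respond: ATF6, which is cut to release a transcription factor; IRE1 (encoded by Ern1), an RNase that splices Xbp1 mRNA; and PERK (encoded by Eif2ak3), a kinase that slows translation and thereby favours production of ATF4. Splicing of Xbp1, cleavage of ATF6 and phosphorylation of PERK are not read by 3′ counts of gene totals, so the values below are mRNA levels only. By the branch that is best known to induce or to contain them, 11 members were listed under ATF6, 9 under IRE1-XBP1 and 7 under PERK-ATF4, and 3 (Canx, Pdia3 and Sdf2l1) under none. The branches share many targets, so the lists are a way to order the genes and not a readout of a sensor.

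Some of these promoters hold sequence elements through which unfolded protein is known to induce genes. The elements are known from genes of this response, so the counts below describe the members and are no test of enrichment. RefSeq promoters (GRCm38.p6, 250 bases before to 50 bases after the start site) were matched for 26 of the 30 members, all but Hyou1, Atf6, Derl1 and Manf. The ER stress response element, searched on both strands as CCAAT and CCACG with 9 bases between them, was found in 8 of these 26 (Calr, Canx, Creld2, Derl3, Dnajc3, Hsp90b1, Hspa5 and Pdia6) and in 39 of 32851 promoters overall (0.119%). The related element ERSE-II, searched as ATTGG and CCACG with 1 base between them, was found in Dnajb11 and Herpud1 and in 12 promoters overall (0.0365%). The ATF4-binding CARE element, searched as TGATGNAA, was found in 4 members (Asns, Chac1, Herpud1 and Trib3) and in 1304 promoters overall (3.97%), and the XBP1 element TGACGTGG in no member and in 222 promoters (0.676%). A match is a run of letters and not a shown binding site. Each element was searched only in the form given, so variants of it were not counted. The Hspa5 stretch below, for example, holds TGACGTGA, which differs from the searched XBP1 element in the last letter only. None of the matches overlapped another. The stretches below, written 5′ to 3′ along each gene's own strand with the matched letters in capitals, are shown because they hold these elements in the chaperones, a plasma cell gene and the ATF4 targets that the results turn on. In Hspa5 the match to the ER stress response element starts 65 bases before the start site. The same stretch holds CCAAT and CCAAC with 9 bases between them, which the search did not count. In Hsp90b1 there are 2 matches in opposite orientation, in Derl3 the match is on the reverse strand, and Herpud1 holds a CARE followed by an ERSE-II.
Hspa5, chr2:34771840-34772089, plus strand: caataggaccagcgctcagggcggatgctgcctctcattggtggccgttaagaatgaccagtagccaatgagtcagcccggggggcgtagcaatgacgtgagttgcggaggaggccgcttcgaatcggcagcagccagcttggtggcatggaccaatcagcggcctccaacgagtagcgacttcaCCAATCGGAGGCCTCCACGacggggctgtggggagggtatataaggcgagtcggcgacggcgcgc
Hsp90b1, chr10:86705533-86705656, minus strand: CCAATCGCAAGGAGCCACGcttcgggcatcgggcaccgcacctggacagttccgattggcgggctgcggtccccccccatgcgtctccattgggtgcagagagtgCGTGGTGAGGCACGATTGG
Derl3, chr10:75893206-75893295, plus strand: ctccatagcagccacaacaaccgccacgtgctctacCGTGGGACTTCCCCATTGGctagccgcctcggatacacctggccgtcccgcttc
Herpud1, chr8:94386307-94386396, plus strand: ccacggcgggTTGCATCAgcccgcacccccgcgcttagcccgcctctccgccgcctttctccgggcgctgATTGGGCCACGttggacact
Chac1, chr2:119351008-119351097, plus strand: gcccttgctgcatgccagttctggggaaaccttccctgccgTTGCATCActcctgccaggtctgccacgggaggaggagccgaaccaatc
Asns, chr6:7693210-7693299, minus strand: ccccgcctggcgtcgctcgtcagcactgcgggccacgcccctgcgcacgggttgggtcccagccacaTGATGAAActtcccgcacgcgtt

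After filters, 42448 of 49851 barcodes were kept as cells, 9039 to 11591 per library, with a median of 4731 to 6297.5 UMIs per cell. Between 36 and 52 barcodes were shared by any pair of libraries. Clustering gave 39 clusters, and 20 classes were named from marker genes; a class name means cells like that type by those markers. None of the 30 members was among the 2000 genes that made the clusters. Of the clusters, 3 (3917 cells) stayed unnamed and are in no comparison. The innate lymphoid class was a single cluster of 525 cells led by Calca, Il5 and Il13. A cluster of 954 cells led by Gzmc and Ncr1, also innate lymphoid by its leading genes, was among the unnamed. Values of innate lymphoid cells below therefore do not cover cells like these. The plasma cell class held 140, 491, 1567 and 551 cells in control 1, control 2, DSS 1 and DSS 2, and every list of 4 values below is in that order. Goblet cells numbered 1130, 411, 341 and 352, colonocytes (the absorptive lining cells) 1986, 4520, 610 and 2483, and fibroblasts 1736, 1921, 2670 and 4140. Goblet cells carried 8 of their 8 markers, fibroblast clusters 4 to 7 of 7, plasma cell clusters 6 or 7 of 8, and colonocyte clusters 3 to 9 of 10. The colonocyte cluster with 3 markers held 51 cells, all in control 2, and was led by S100g and Sis, with Fabp6 and Apoa1 among its leading genes. Its members summed to 3616 CPM, the highest of the colonocyte clusters, and it is pooled into the class. Some clusters were far from even between libraries. A colonocyte cluster led by Ly6g and Il1rn held 1429 of its 1796 cells in DSS 2, and a fibroblast cluster led by Has1 and Il6 held 2290 of 2743 there. Epithelial progenitors numbered 1455, 621, 34 and 143. Levels are UMIs of a gene per 1000000 UMIs of a class in a library (CPM). They are 3′ counts, not divided by length, so 1 gene is compared between classes and not genes with each other.

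Plasma cells gave these genes the largest share of their RNA among the 12 classes with at least 30 cells in every library. The 30 members made up 0.943, 1.38, 1.22 and 1.25% of all plasma cell UMIs. By the mean of the 4 libraries goblet cells followed at 0.602, 0.909, 0.63 and 0.708%, macrophages and monocytes at 0.445, 0.706, 0.615 and 0.694%, and fibroblasts at 0.631, 0.576, 0.582 and 0.652%. Colonocytes had the lowest mean, at 0.202, 0.251, 0.366 and 0.344%, though in DSS 1 T cells, B cells, innate lymphoid cells and smooth muscle cells lay below them. Gene by gene, plasma cells had the highest mean of the 12 classes for 17 members, goblet cells for 4, fibroblasts for 3, macrophages and B cells for 2 each, and innate lymphoid and dendritic cells for 1 each. For 11 of the 17 plasma cell members, every plasma cell library lay above every library of the next class. The same held for 2 of the 4 goblet members, Pdia3 and Asns, and for Ern1 in innate lymphoid cells. These counts of highest classes were made for the members only. No share of all genes stands beside them, so they do not set the members apart from other genes.

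**Figure D1:**
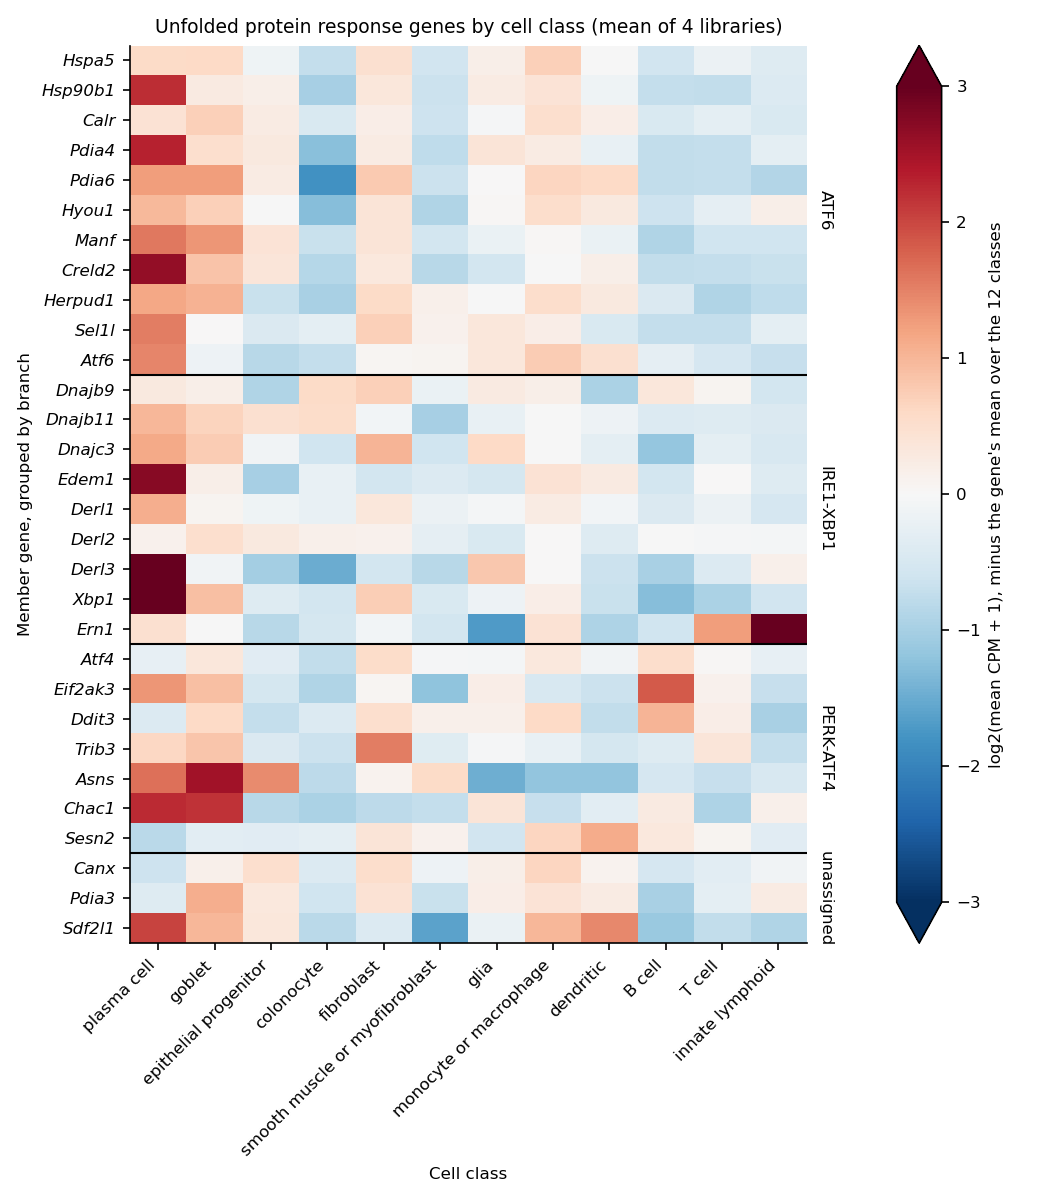
Level of each of the 30 members (rows, by branch) in the 12 tested classes (columns), as log2 of mean CPM plus the pseudocount of 1 over the 4 libraries, minus that gene's mean over the classes. Plasma cells have the highest value in 17 rows, with the darkest cells for Derl3, Xbp1 and Edem1, and Ern1 is highest in innate lymphoid cells.

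Derl3, Xbp1 and Edem1, all of the IRE1-XBP1 branch, had the largest ratios of the plasma cell mean to the mean of the next class among the 17, at 20.7, 4.9 and 4.9. Xbp1 (chr11:5520659-5525893 in GRCm38) encodes a transcription factor needed for the secretory apparatus of plasma cells. It was at 1523, 1616, 1693 and 1533 CPM in plasma cells, against 282, 401, 302 and 321 CPM in goblet cells, 241, 318, 276 and 335 CPM in fibroblasts and 74.9, 93.9, 164 and 146 CPM in colonocytes. The 4 plasma cell values do not overlap those of any of these classes. Derl3, a channel component that helps pull misfolded protein out of the ER for degradation (chr10:75893413-75895941), was at 185, 181, 216 and 196 CPM in plasma cells and at 2.25 to 9.76 CPM in goblet cells, 1.14 to 5.13 CPM in fibroblasts and 0.27 to 2.60 CPM in colonocytes. Its higher values outside plasma cells lay mostly in DSS 1, where Igha, an antibody gene of plasma cells, was also highest in these classes (178, 1059, 5901 and 1519.6 CPM in goblet cells). The part of RNA from broken plasma cells in those low values was not tested. Edem1, a lectin that marks misfolded glycoproteins for disposal, was at 504, 639.8, 582 and 507 CPM in plasma cells and 61.0 to 86.9 CPM in colonocytes. Derl1, a relative of Derl3, was at 154, 139, 176 and 156 CPM in plasma cells and at 51.3 to 73.0 CPM in colonocytes. By contrast Derl2 differed little between classes, at 38.5 to 54.7 CPM in plasma cells, 51.3 to 69.4 in goblet cells and 35.3 to 52.5 in colonocytes. Dnajb9, an ER co-chaperone that restrains IRE1, overlapped between classes as well, at 86.0 to 122 CPM in plasma cells and 48.6 to 163 CPM in colonocytes. Its relatives Dnajb11 and Dnajc3 were at 164, 197, 196 and 178 CPM and 252, 352, 403 and 297 CPM in plasma cells, and at 103, 94.9, 171 and 164 CPM and 81.0, 76.2, 129 and 97.5 CPM in colonocytes.

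Of the members listed under ATF6, 4 are chaperones and the others isomerases, secreted ER proteins, degradation factors and the sensor gene. Several had their highest level in plasma cells. Hsp90b1 (GRP94), an ER chaperone of the HSP90 family, was at 2468, 4327, 3442 and 3788 CPM in plasma cells, against 775, 1166, 800.5 and 911 CPM in goblet cells and 253, 304, 504 and 449 CPM in colonocytes. The lowest plasma cell library was above every goblet and colonocyte library. Pdia4, a disulfide isomerase, was at 329.6, 532, 490.3 and 490.0 CPM in plasma cells, 110.2, 176, 120.3 and 114 CPM in goblet cells and 22.4, 27.3, 54.2 and 48.1 CPM in colonocytes. Creld2, a small secreted ER protein, was at 171, 264, 345 and 286 CPM in plasma cells and 61.5, 95.1, 72.6 and 75.0 CPM in goblet cells. For both genes the plasma cell libraries lay above all libraries of the next class, by 3.5-fold in the means. Sdf2l1, a cofactor of the chaperone BiP listed under no branch, was at 240.3, 211, 244 and 217 CPM in plasma cells and 21.8 to 36.2 CPM in colonocytes. Sel1l, the scaffold of the main ER degradation complex, was at 135, 189.6, 198 and 186 CPM, and the sensor gene Atf6 at 86.3, 172, 92.5 and 155 CPM in plasma cells, against 43.7 to 57.9 and 22.6 to 29.2 CPM in colonocytes.

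Another 5 ATF6 members overlapped between plasma and goblet cells in CPM, which counts immunoglobulin UMIs in the plasma cell total. With immunoglobulin UMIs left out, all 11 ATF6 members, these 5 among them, were higher in plasma cells than in goblet cells in each library (27.8% of all genes), and the same held under trimmed-mean (TMM) scaling (23.5%). Pdia6, a disulfide isomerase that also acts on IRE1, was at 349, 432, 379 and 323 CPM in plasma cells and 404, 437, 351 and 276 CPM in goblet cells, which overlap, and at 19.7, 20.1, 78.3 and 54.3 CPM in colonocytes. Manf, a secreted protein that binds BiP, was at 591, 549.6, 716 and 616 CPM in plasma cells, 474, 589, 491 and 517 CPM in goblet cells and 70.3, 64.4, 214 and 168 CPM in colonocytes. Hspa5 encodes BiP, the ER HSP70 chaperone that holds the sensors inactive. Its level was 676, 1725, 1041 and 1279 CPM in plasma cells, 721, 1649, 1062 and 1320.2 CPM in goblet cells, 1016, 1025, 993 and 1404 CPM in fibroblasts and 919.6, 1816, 988 and 1477 CPM in macrophages and monocytes, whose mean was the highest; these 4 classes overlap. In colonocytes Hspa5 was at 207, 451, 658 and 615 CPM. Hyou1, a large HSP70 relative that recharges BiP, and Herpud1, a degradation factor, were at 41.0, 99.6, 72.0 and 76.8 CPM and 251, 460.3, 384 and 431 CPM in plasma cells and at 45.7, 83.1, 60.9 and 50.9 CPM and 229, 563, 251 and 349 CPM in goblet cells, again with overlap.

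The lectin chaperone system had another order. Calnexin (Canx) and calreticulin (Calr) hold newly made glycoproteins, and Pdia3 (ERp57) is the disulfide isomerase that works with them. Pdia3 was at 728, 807, 622 and 587 CPM in goblet cells, above every library of every other tested class, with fibroblasts next at 478, 414, 459 and 376 CPM and plasma cells at 193, 275, 257 and 263 CPM. Calr was at 819, 910.1, 744 and 706 CPM in goblet cells and 605, 696, 692 and 609 CPM in plasma cells, and the DSS libraries of the goblet class lay close to those of the plasma class. Canx was lowest of the 12 classes in plasma cells, at 126, 181, 120.1 and 166 CPM, with 224, 287, 230.4 and 274 CPM in goblet cells and 341, 322, 322 and 348 CPM in fibroblasts. The place of plasma cells in this order depends on what a level is taken against. Immunoglobulin genes made up 50.3, 47.8, 52.5 and 51.8% of plasma cell UMIs, and each plasma cell level in CPM counts these in its total. Without immunoglobulin UMIs, Pdia3 alone was lower in plasma than in goblet cells in each library, and Canx and Calr were higher.

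Counted over the module, 22 of the 28 members at or above a mean of 5 CPM were higher in plasma cells than in colonocytes in each of the 4 libraries, and none was lower in each. Of all genes at that level, 16.4% were higher and 62.5% lower in each library. The median log2 ratio was 1.92 for the members and −0.92 for all genes. All 11 ATF6 members, 7 of the 9 IRE1-XBP1 members and 3 of the 5 PERK-ATF4 members at the limit (Atf4, Eif2ak3 and Asns) were among the 22. With immunoglobulin UMIs left out, 28 members were higher (40.6% of all genes) and the all-gene median moved to 0.14; with levels scaled by trimmed means (TMM), 26 were higher (28% of all genes) and the all-gene median was −0.41. No member was lower in each library under either scaling.

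Goblet cells were higher than colonocytes in each library for 22 of 27 members at the limit and lower for none, with a median log2 ratio of 1.31. Of all genes, 39% were higher and 30.1% lower in each library, with a median of 0.19. Under TMM scaling the all-gene median moved to −0.23, and 16 members were higher (26.9% of all genes) and Dnajb9 was lower in each library (48.9% of all genes). All 11 ATF6 members were higher in goblet cells, and 9 of them under TMM. Of the 8 IRE1-XBP1 members at the limit, 5 were higher, but only 2 under TMM, where Dnajb9 was lower. Of the 5 PERK-ATF4 members at the limit, Atf4, Eif2ak3 and Asns were higher under both scalings.

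Between fibroblasts and colonocytes the counts of members lay closer to those of all genes. In fibroblasts 21 of 27 members were higher than in colonocytes in each library and 2 (Dnajb11 and Edem1) were lower, with a median log2 ratio of 0.99. Of all genes 56.8% were higher and 27.4% lower, with a median of 0.60. Under TMM scaling, which moved the all-gene median to −0.26, 8 members were higher (33.4% of all genes) and 4 were lower, namely Dnajb11, Edem1, Derl1 and Derl2 (47.9% of all genes). All 11 ATF6 members were higher in fibroblasts in CPM, 6 of them under TMM. Pdia6 was among these 6, at 327, 241, 264 and 234 CPM in fibroblasts. Manf, at 389.7, 197, 241 and 258 CPM, and Hspa5 were not.

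Set directly against goblet cells, plasma cells were higher in each library for 12 members and lower for 7 (Calr, Canx, Pdia3, Derl2, Atf4, Ddit3 and Asns) of 29 at the limit, while 8.99% of all genes were higher and 78% lower. With immunoglobulin UMIs left out, 23 were higher (27.8% of all genes) and only Pdia3 was lower (37.1% of all genes); under TMM these counts were 22 (23.5%) and 1, Pdia3 again (41.6%). The 12 members that were higher in CPM include 6 of 9 IRE1-XBP1 members (Xbp1, Edem1, Derl1, Derl3, Dnajb11 and Dnajc3). None of the 6 PERK-ATF4 members at the limit was higher in plasma cells in each library, and 3 were lower; with immunoglobulin UMIs left out or under TMM, 1 was higher and none lower.

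**Figure D2:**
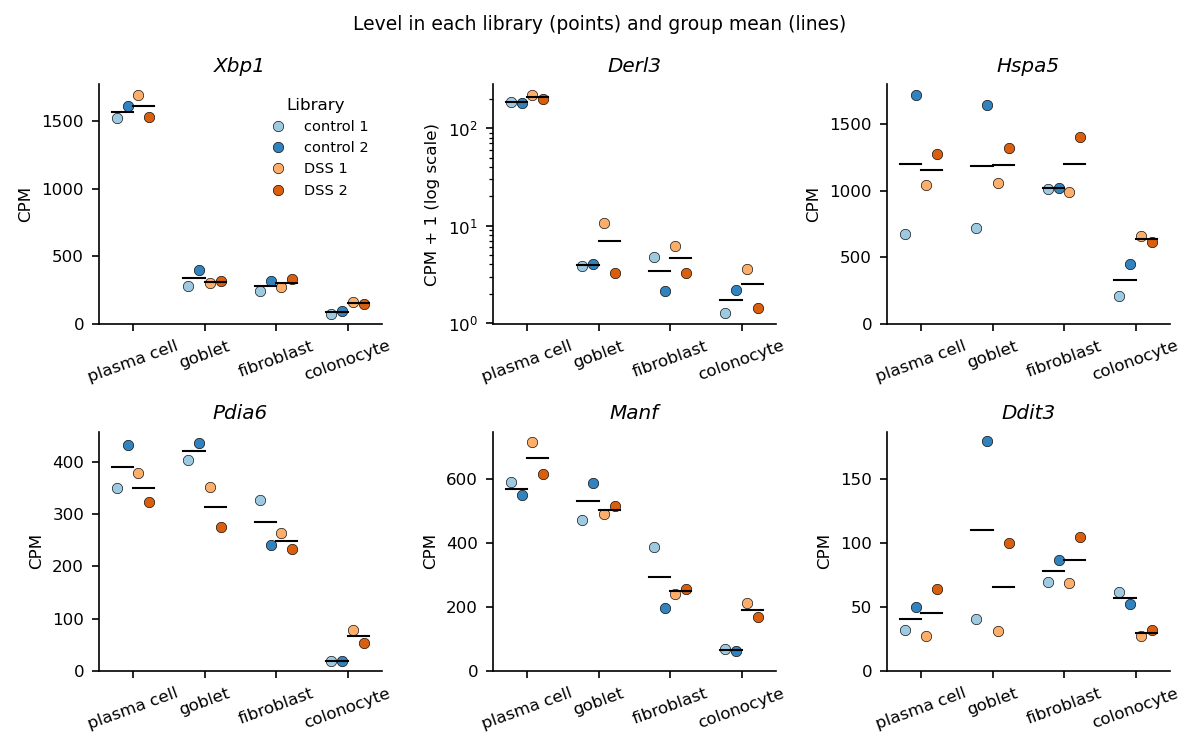
Level in CPM (from 0; for Derl3, CPM plus 1 on a log axis) of Xbp1, Derl3, Hspa5, Pdia6, Manf and Ddit3 in plasma cells, goblet cells, fibroblasts and colonocytes, with 1 point per library and lines at the control and DSS means. The 4 plasma cell points of Xbp1 and Derl3 lie above all other points, and in colonocytes both DSS points of Pdia6 and Manf lie above both control points.

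**Figure D3:**
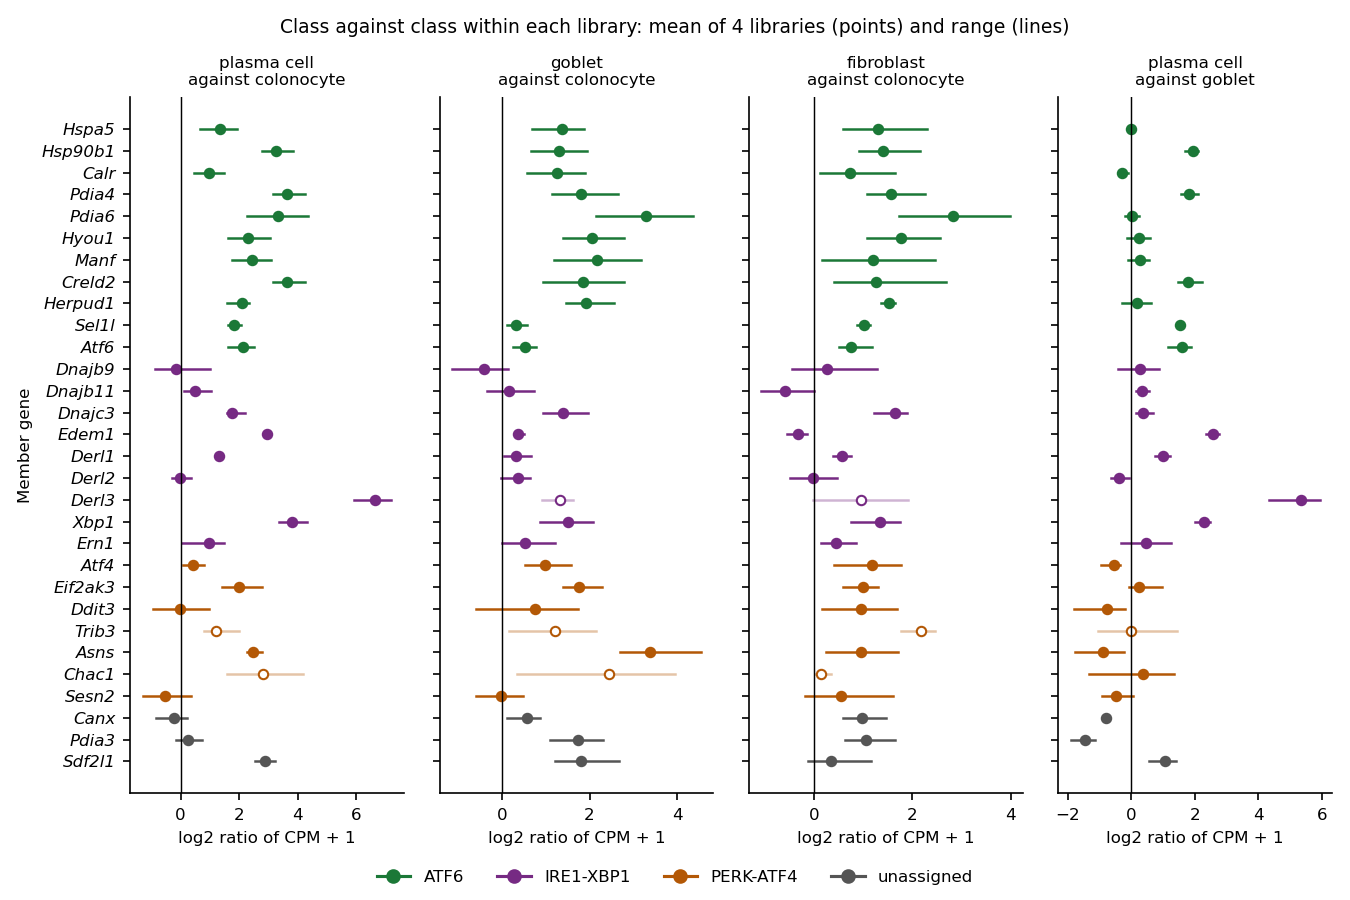
Log2 ratio of CPM plus 1 between classes within a library for each member, with the mean of the 4 libraries as a point and their range as a line, coloured by branch; open points are members under the level limit of 5 CPM. For plasma cells against colonocytes 22 ranges at or above the limit lie wholly above 0, and against goblet cells 12 lie above and 7 below 0.

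The PERK-ATF4 members were low or uneven. Atf4, the transcription factor of this branch, was at 198, 489, 195 and 373 CPM in goblet cells and 182, 380.2, 308 and 583 CPM in fibroblasts. It was at 146, 249, 142 and 293 CPM in plasma cells and 137, 164, 118 and 169.8 CPM in colonocytes. Values of goblet cells, fibroblasts and plasma cells overlapped. Within each library all 3 classes were above colonocytes, with log2 ratios of 0.53 to 1.57, 0.41 to 1.77 and 0.10 to 0.78 in that order. Under TMM scaling this no longer held for fibroblasts. Asns, which makes asparagine and is a target of ATF4, was at 48.5, 60.7, 45.4 and 49.1 CPM in goblet cells, 24.5, 17.2, 38.2 and 31.1 CPM in plasma cells and 3.62, 1.64, 6.21 and 5.72 CPM in colonocytes; every goblet library was above every library of the other classes. Chac1, a target that breaks down glutathione, was read in 358 UMIs in plasma cells and 332 in goblet cells, at 2.16, 4.93, 9.09 and 20.9 CPM and 0.33, 14.0, 2.95 and 17.9 CPM. In colonocytes it was read in 19 UMIs over 9599 cells. Trib3, a pseudokinase induced late in ER stress, was read in 85 UMIs in plasma cells and 8 in colonocytes, and its highest tested class was fibroblasts at 4.21, 2.80, 4.47 and 3.55 CPM. Outside the tested classes, lymphatic endothelial cells (18 to 108 cells a library) had Trib3 at 21, 26.3, 48.7 and 32.1 CPM, from 43 UMIs. Each of these 4 values is above every fibroblast value. Ddit3 encodes CHOP, a factor tied to cell death under lasting stress. The mean Ddit3 level was highest in B cells, at 128, 141, 70.9 and 131 CPM. Goblet cells overlapped with these at 40.5, 179, 31.6 and 99.8 CPM, and plasma cells were at 31.7, 50.1, 27.0 and 63.6 CPM. Sesn2, a stress-induced regulator of growth signalling, had its highest mean in dendritic cells at 0, 34.8, 26.1 and 25.4 CPM, where 1 library had no UMI of it, and was at 3.95 to 11.8 CPM in colonocytes.

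The 3 sensor genes had their highest means in different classes. In CPM all 3 were higher in plasma cells, goblet cells and fibroblasts than in colonocytes in each library (16.4, 39 and 56.8% of all genes). The Ern1 log2 ratio to colonocytes was only 0.04 in control 1 for plasma cells and 0.008 in control 2 for goblet cells. Under TMM scaling all 3 stayed higher in plasma cells, only Eif2ak3 in goblet cells and no sensor gene in fibroblasts. Ern1 (chr11:106394650-106487852), which encodes IRE1, was at 89.2, 160.3, 100.9 and 218 CPM in innate lymphoid cells and 7.63, 58.3, 12.1 and 85.9 CPM in T cells, against 14.4 to 31.7 CPM in plasma cells, 12.8 to 20.5 in goblet cells, 12.2 to 18.9 in fibroblasts and 8.31 to 13.9 in colonocytes. These innate lymphoid cells, the cluster led by Calca and Il5, rest on 180 UMIs of Ern1 in 525 cells. Their lowest library was just above the highest T cell library. So the class with the most Xbp1 was not the class with the most Ern1. Eif2ak3, which encodes PERK, was at 50.7, 93.8, 47.9 and 131 CPM in B cells, 25.2, 62.0, 29.8 and 107 CPM in plasma cells and 26.4, 58.4, 29.4 and 54.5 CPM in goblet cells, which overlap, and at 8.27, 11.1, 10.7 and 14.96 CPM in colonocytes. Ern2, the IRE1 form of mucosal epithelium and no member of the 30, was at 137, 170.1, 139 and 90.2 CPM in goblet cells, 29, 46.3, 36.6 and 23.8 CPM in epithelial progenitors and 2.43, 2.01, 6.13 and 4.65 CPM in colonocytes.

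Across the means of the 12 classes, the members ranked most like Xbp1 were Manf (Spearman 0.89), Sel1l (0.87), Hsp90b1 and Dnajc3 (0.85 each) and Derl1 (0.83). Atf4 ranked unlike Xbp1 (0.05) and most like Ddit3 (0.83). These are descriptions over 12 classes that share 4 libraries and differ in depth.

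Inside the goblet class, a finer clustering separated cells with more Clca1 and Fcgbp (648, 130, 321 and 168 cells) from cells with less (479, 278, 20 and 183 cells). Of 28 members at the limit, 5 were higher in each library in the cells with less Clca1 and 2 were lower, against 47.9% and 4.13% of all genes. Levels were near each other: Hspa5 was at 773, 1642, 1083 and 1371 CPM in the Clca1-high cells and 661, 1651, 818 and 1250.2 CPM in the others, and Xbp1 at 257, 383, 299 and 274 CPM and 312, 407, 339.8 and 369 CPM. Plasma cells were split unevenly over 3 clusters, and summed over libraries the members reached 11814 CPM in the cluster found in every library, 16588 in a cluster with 442 of 511 cells in DSS 1, and 8122 in a cluster with 393 of 408 cells there. Xbp1 was at 1524, 1606, 1555 and 1555 CPM in the first of these.

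Further ER genes from 5 lists (79 genes, none of them members) were read in the same classes. Of 23 genes for entry into the ER and glycosylation, 21 were higher in plasma cells than in colonocytes in each library, 22 in goblet cells and 18 in fibroblasts, beside the all-gene shares above. Sec61b, a subunit of the translocation channel, was at 1127, 1065, 747 and 927 CPM in goblet cells, 979, 766, 903 and 848 CPM in plasma cells and 328, 231, 419 and 505 CPM in colonocytes. Of 21 further folding genes, 18 were at the limit for plasma cells against colonocytes, with 12 higher and 2 lower. For goblet cells 17 were at the limit, with 15 higher and 1 lower. Txndc5, a disulfide isomerase, was at 1242, 1122, 1178 and 1053 CPM in plasma cells and 398, 494, 268 and 328 CPM in goblet cells. Agr2, the isomerase needed to fold mucin, was at 12636, 11275, 7593 and 9181 CPM in goblet cells and 83.5, 84.8, 16.3 and 104 CPM in plasma cells. Mzb1, a plasma cell chaperone for antibody chains, was at 11.5, 11.5, 11.4 and 16.6 CPM in plasma cells and under 1.2 CPM in every library of goblet cells, fibroblasts, colonocytes and progenitors. All 11 further degradation genes were at the limit, with 7 higher and 2 lower in plasma cells, and 8 higher and 1 lower in goblet cells. Of 8 further sensors and membrane-bound factors, 7 were at the limit for plasma cells, with 2 higher, 2 lower and a median log2 ratio of −0.54. For goblet cells all 8 were, with 6 higher, 1 lower and a median of 0.70. Of 16 further genes of ATF4 and CHOP, 14 were at the limit in each comparison with colonocytes. In plasma cells 6 were higher and 5 lower, in goblet cells 9 and 2, and in fibroblasts 10 and 2. The median log2 ratios were 0.63, 0.83 and 2.34 in that order. Of these genes, Ppp1r15a, which restarts translation, was at 129, 312, 295 and 430.2 CPM in fibroblasts and 86.5, 149, 61.0 and 135 CPM in colonocytes. Atf3, a stress-induced transcription factor, was at 229.8, 895, 397 and 556 CPM in fibroblasts and 740.5, 1170.4, 1304 and 877 CPM in colonocytes.

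Colonocytes were the class in which both DSS libraries lay above both controls for the most members, although none passed the threshold in edgeR. Both DSS libraries were above both control libraries for 17 of the 26 colonocyte members at the limit, and below for 2; over all genes at the limit these shares were 27.5% and 20.2%. Pdia6, at 19.7, 20.1, 78.3 and 54.3 CPM, had the largest difference, with a log2 fold change of 1.67 ± 0.24 (SE) and an adjusted p of 0.128 in edgeR's quasi-likelihood test with Benjamini-Hochberg adjustment, which is used for every adjusted p below unless named. Manf followed at 70.3, 64.4, 214 and 168 CPM, with 1.44 ± 0.23 (SE) and adjusted p = 0.138. Creld2 was at 11.4, 13.0, 37.7 and 28.4 CPM, with 1.37 ± 0.24 (SE) and adjusted p = 0.157. In each of these 3 genes the lower DSS library was more than 2-fold above the higher control library. Asns, at 3.62, 1.64, 6.21 and 5.72 CPM, had 1.16 ± 0.42 (SE) and adjusted p = 0.377. Xbp1 and Calr were also above the controls in both DSS libraries, with log2 fold changes of 0.81 ± 0.24 (SE) and 0.88 ± 0.27 (SE). Hspa5 was above them as well, at 0.87 ± 0.42 (SE), but its control values differed among themselves by more than 2-fold. In the other direction, Ddit3 was at 61.7, 52.6, 27.0 and 31.9 CPM, with −1.01 ± 0.21 (SE) and adjusted p = 0.208. Ern1, at 13.9, 12.8, 8.31 and 10.0 CPM, had −0.59 ± 0.24 (SE) and adjusted p = 0.411.

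By branch, 7 of the 11 ATF6 members had an unadjusted p under 0.05 and a higher level in DSS colonocytes, as did 2 of 9 IRE1-XBP1 members, 1 of 5 tested PERK-ATF4 members and 1 of 3 unassigned ones; 1 IRE1-XBP1 member (Ern1) and 1 PERK-ATF4 member (Ddit3) were lower at that level. In all, 11 of 28 tested members were higher and 2 lower at an unadjusted p under 0.05, against 5.87% and 5.7% of the 14237 genes tested. The median log2 fold change was 0.48 for the members and 0.01 for all genes. DESeq2 called 4 of these members (2.47% of all genes): Pdia6 (adjusted p = 3.66e-05), Manf (0.000113), Creld2 (0.00394) and Ddit3 (0.0402). With edgeR and no filter on low counts 6 members passed, and with 1 library left out 3 passed without control 1, 1 without DSS 1, 1 without DSS 2 and 0 without control 2. The colonocyte clusters differ between libraries, so single clusters were also fitted. In the cluster with 684, 2506, 245 and 844 cells, Pdia6 was at 10.7, 14.5, 38.6 and 26.8 CPM and Manf at 34.2, 48.3, 121 and 104 CPM. In the cluster with 1284, 1756, 192 and 146 cells, Pdia6 was at 21.3, 21.3, 85.8 and 55.2 CPM and Manf at 79.3, 72.5, 225 and 135 CPM. The DSS libraries lay above the controls for both genes in each cluster, and no member passed the threshold in either. Ddit3 did not keep its order there: in the latter cluster it was at 58.0, 44.0, 31.8 and 62.5 CPM.

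Markers of other cells were also read in colonocytes. Summed plasma cell markers were at 502, 2967, 5257 and 1027 CPM, and control 2 lay above DSS 2. Of 8 plasma cell markers, 1 was higher in both DSS libraries than in both controls and none was lower in both. Summed goblet markers were at 836, 717, 663 and 225 CPM. Of 8 goblet markers, 4 were lower in both DSS libraries and none was higher in both. No plasma cell or goblet marker was at 0 in all libraries. The share of cells removed for mitochondrial UMIs was 14 and 17.4% in the control libraries and 5.16 and 6.42% in the DSS libraries. The part of these in the colonocyte values was not tested.

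**Figure D4:**
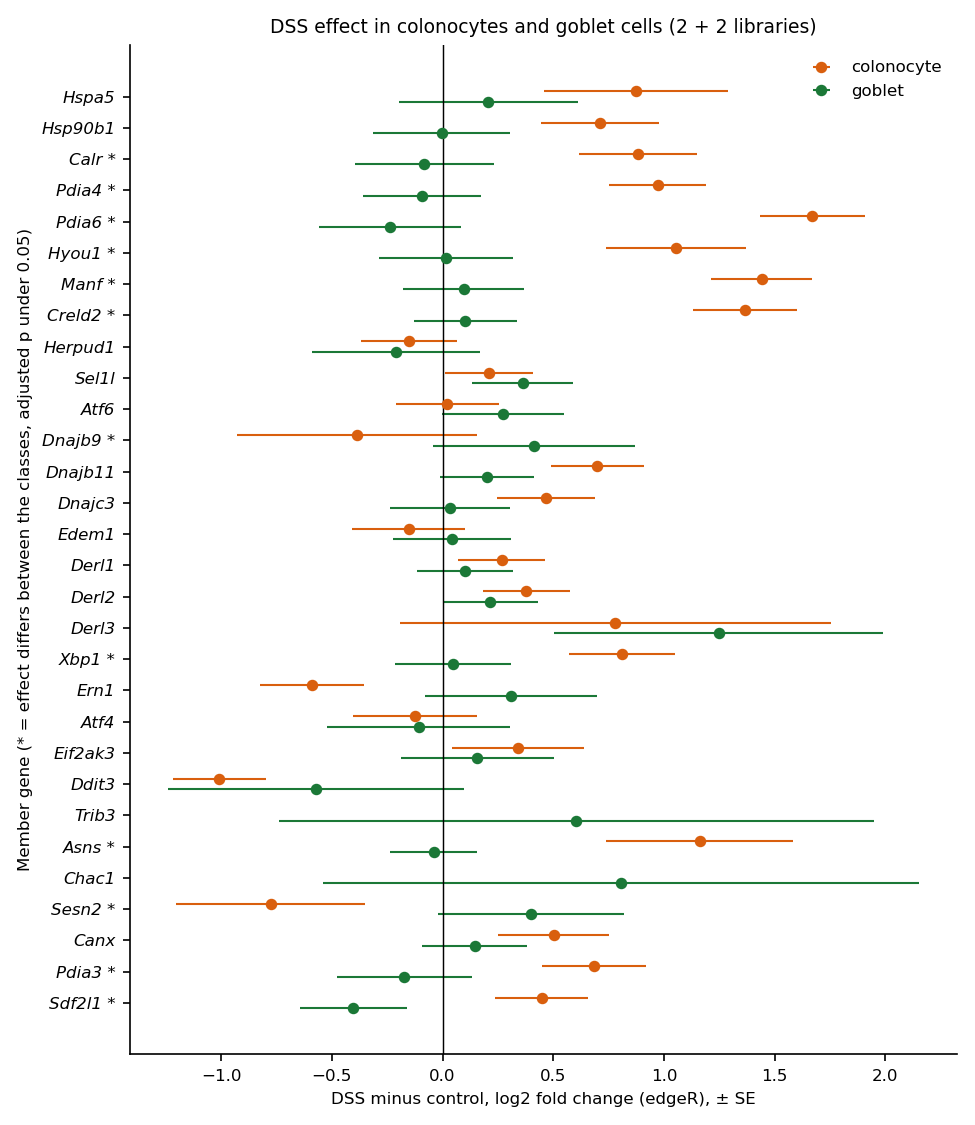
Log2 fold change of DSS against control for each member in colonocytes and goblet cells, with bars of 1 standard error from edgeR's quasi-likelihood fit; a star marks the 12 members whose difference between the classes passed the threshold. Pdia6, Manf and Creld2 lie at 1.67, 1.44 and 1.37 in colonocytes and at −0.24, 0.10 and 0.10 in goblet cells.

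The DSS difference was not the same in goblet cells as in colonocytes. In a test of the difference itself, with library as a term, 12 of 30 members passed the threshold, beside 12% of all 14957 genes tested. Of the 12, 10 had a lower DSS-to-control ratio in goblet cells than in colonocytes, namely 6 ATF6 members (Pdia6, Manf, Creld2, Hyou1, Pdia4 and Calr), Xbp1, Asns, Sdf2l1 and Pdia3. The goblet ratio of Pdia6 minus its colonocyte ratio was −1.96 ± 0.22 (SE) on the log2 scale, with an adjusted p of 0.00225; goblet levels were 404, 437, 351 and 276 CPM. For Manf this was −1.38 ± 0.21 (adjusted p = 0.0053), for Creld2 −1.30 ± 0.19 (adjusted p = 0.00525) and for Xbp1 −0.81 ± 0.21 (adjusted p = 0.0338). Dnajb9 and Sesn2 differed the other way, at 0.95 ± 0.26 (adjusted p = 0.0406) and 1.14 ± 0.30 (adjusted p = 0.0403). In colonocytes Dnajb9 was at 108.9, 158, 48.6 and 163 CPM and Sesn2 at 6.76, 11.8, 3.95 and 7.28 CPM, each lowest in DSS 1. With the colonocytes of a single cluster, 6 members (8.19% of all genes) and 7 members (9.45%) passed; Pdia6, Manf, Creld2, Pdia4 and Dnajb9 passed with either. Without DSS 1, 7 passed. Against colonocytes, plasma cells had 2 members past the threshold (0.449% of all genes), Pdia6 at −1.52 ± 0.36 (adjusted p = 0.0441) and Ddit3 at 1.33 ± 0.31 (adjusted p = 0.0433), and neither passed under another size factor or without either control library. Fibroblasts had none (0.0121% of all genes) by edgeR.

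Within goblet cells no member changed past the threshold (0% of all genes by edgeR and 2.67% by DESeq2, which called 0 members). None had an unadjusted p under 0.05, where 8.14% of all genes were higher and 5.36% lower at that level. Sdf2l1, Pdia6, Pdia3 and Calr, 4 of 28 members at the limit, were lower in both DSS libraries than in both controls (27.2% of all genes), and none was higher in both (10.2%). Sdf2l1 had the largest of these differences, at 120.1, 144, 91.8 and 84.9 CPM, with −0.40 ± 0.24 (SE) and adjusted p = 0.54. Pdia6, Pdia3 and Calr differed by −0.24, −0.17 and −0.08, and each turned positive without DSS 2. Xbp1 in goblet cells had 0.05 ± 0.26 (SE). Agr2 was lower in both DSS libraries, as printed above. Summed epithelial progenitor markers in goblet cells were at 577, 684, 225 and 190.4 CPM, lower in both DSS libraries for 8 of 8 markers, and plasma cell markers at 978, 3130.0, 19226 and 5855 CPM; their part was not tested.

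In plasma cells all 29 tested members had a positive log2 fold change, as did 47.8% of all 10588 genes tested. The median was 0.34 for the members and −0.02 for all genes. No member passed the threshold by edgeR (0% of all genes) or DESeq2 (0.0839%). Of 28 members at the limit, 7 were higher in both DSS libraries than in both controls (2.5% of all genes) and none was lower in both (26.5%). Chac1, at 2.16, 4.93, 9.09 and 20.9 CPM, had 2.12 ± 0.48 (SE) with an unadjusted p of 0.0024 and an adjusted p of 0.9996. Asns, at 24.5, 17.2, 38.2 and 31.1 CPM, had 1.00 ± 0.41 (SE), and with Chac1 it was 1 of the 2 members at an unadjusted p under 0.05 (0.897% of all genes). Creld2 had 0.80 ± 0.38 (SE) and Dnajb9 0.57 ± 0.32 (SE). The plasma cell clusters found mostly in DSS 1 enter these sums, and without DSS 1 a single member passed the threshold. Of the markers of other cells in plasma cells, 7 of 8 progenitor markers (summed 59.0, 30.8, 11.6 and 17.1 CPM) and 3 of 8 goblet markers (543, 587, 268 and 308 CPM) were lower in both DSS libraries, and 4 of 6 T cell markers (159.7, 186, 120.3 and 222 CPM) were higher in both. No progenitor, goblet or T cell marker was at 0 in all libraries, and their part was not tested.

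Fibroblasts had 3 of 27 members higher in both DSS libraries (5.27% of all genes), Dnajb9, Hyou1 and Dnajc3, and none lower in both (17.5%); none passed the threshold by edgeR or DESeq2 (0.136% of all genes by DESeq2), and none had an unadjusted p under 0.05 (1.34% of all genes higher and 0.848% lower at that level). Dnajb9 was at 116, 115, 120.2 and 176 CPM, with 0.46 ± 0.29 (SE) and adjusted p = 0.9999, and Hyou1 at 45.8, 42.3, 48.9 and 55.4 CPM. Hspa5 in fibroblasts was above the other libraries in DSS 2 only, where the cluster led by Has1 and Il6 holds 2290 of 4140 cells. That cluster had Hspa5 at 1276, 1192 and 1506 CPM in control 2, DSS 1 and DSS 2.

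Epithelial progenitors were the 1 class in which edgeR called genes at all (2.2% of 12741), but no member was among them, nor among those of DESeq2 (2.23%). Manf had 0.78 ± 0.28 (SE), Creld2 0.68 ± 0.31 (SE), Dnajb11 0.65 ± 0.28 (SE) and Derl2 0.51 ± 0.26 (SE), and in the other direction Sesn2 had −1.16 ± 0.42 (SE) and Asns −0.74 ± 0.28 (SE). Adjusted p-values of these 6 lay between 0.199 and 0.409. At an unadjusted p under 0.05, 3 members were higher (6.61% of all genes) and 2 lower (7.99%). Of the further lists 3 genes passed the threshold there: Nupr1, a stress-induced chromatin protein, rose by 1.60 on the log2 scale (adjusted p = 0.0271), Vegfa, an endothelial growth factor that ATF4 can induce, fell by 1.49 (adjusted p = 0.0218), and Agr3, a relative of Agr2, fell by 1.78 (adjusted p = 0.0467). DSS 1 holds 34 of these cells, and without control 2, 5 members passed. The class is split over clusters in shares that differ between the groups: a cluster led by cell division genes held 271 of 1455, 156 of 621, 16 of 34 and 90 of 143 of its cells, and the members reached 4731 CPM there, summed over libraries, against 3654 CPM in the other. Manf was at 241, 275 and 396 CPM in the former and 139, 229 and 392 CPM in the latter in control 1, control 2 and DSS 2, leaving out DSS 1 with under 20 cells in each, and Asns at 24.9, 27.4 and 13.7 and 27.6, 32.3 and 23.4 CPM. The DSS 2 values of Manf lay above both controls and those of Asns below both in either cluster, whereas Creld2 in the former, at 40.5, 69.9 and 60.5 CPM, overlapped. No test was run on single progenitor clusters.

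In the remaining 7 tested classes no member passed the threshold by edgeR (0% of all genes in each). DESeq2 called none either, where it called 0.5% of all genes in B cells, 0.0183% in T cells, 0.818% in dendritic cells, 0.193% in glia, 0.0181% in innate lymphoid cells, 0.0832% in macrophages and monocytes and 0.00487% in smooth muscle cells and myofibroblasts. Macrophages and monocytes had 10 of 26 members higher in both DSS libraries (12.9% of all genes) and 2 lower (12.4%). Creld2 had 1.13 ± 0.59 (SE) there, Xbp1 0.65 ± 0.44 (SE), Edem1 0.61 ± 0.33 (SE) and Pdia6 0.49 ± 0.33 (SE), and Eif2ak3 and Ddit3 had −0.81 ± 0.50 (SE) and −0.72 ± 0.37 (SE); no member had an unadjusted p under 0.05 (0.84% of all genes higher, 0.623% lower).

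B cells had 6 of 27 members higher in both DSS libraries (16% of all genes) and 2 lower (17.3%). Pdia6 had 0.99 ± 0.45 (SE) there and was the 1 member with an unadjusted p under 0.05 (1.65% of all genes higher). Hspa5, Calr and Canx had 0.77, 0.57 and 0.49, and Sel1l and Dnajc3 −0.69 and −0.20. T cells had 5 of 26 members higher in both (8.53% of all genes) and none lower (13.5%), among them Creld2, Pdia6, Dnajc3 and Pdia4 at 0.34 to 0.57; none had an unadjusted p under 0.05 (0.613% of all genes higher, 0.972% lower). Dendritic cells had 6 of 26 higher in both (11.4% of all genes) and none lower (20.3%). Xbp1 led at 0.87 ± 0.34 (SE), the 1 dendritic member with an unadjusted p under 0.05 (0.982% of all genes higher, 4.91% lower), with Calr, Sel1l and Edem1 between 0.40 and 0.46.

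Innate lymphoid cells had 4 of 28 members higher in both DSS libraries (11.3% of all genes) and 4 lower (21%). Edem1, at −1.10 ± 0.46 (SE), was the 1 member with an unadjusted p under 0.05 (2.82% of all genes lower). Dnajc3 and Pdia3 had 0.42 and 0.19, and Derl2, Hyou1 and Herpud1 −0.91, −0.85 and −0.09. Smooth muscle cells and myofibroblasts had 6 of 27 higher (8.95% of all genes) and 2 lower (12.2%): Hyou1, Dnajb11, Pdia6 and Xbp1 lay between 0.36 and 0.81, with Eif2ak3 and Ddit3 at −0.46 and −0.44. Glia, the support cells of the gut's nerves, had 2 of 26 members higher (12.6% of all genes) and 5 lower (17%), near the shares of all genes. Derl1 had 0.21 there, and Ddit3, Pdia6, Pdia3 and Calr lay between −0.73 and −0.21. Neither class had a member with an unadjusted p under 0.05, where 0.795% of all genes were higher and 0.742% lower in smooth muscle cells and 1.37% and 1.35% in glia.

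Part of the spread between libraries ran along their numbers and not along treatment. Atf4 was higher in control 2 than in control 1 and higher in DSS 2 than in DSS 1 in 12 of 12 classes. Hspa5 showed both orders in 11 classes, Herpud1 in 10, and Dnajb9, Atf6, Eif2ak3 and Ddit3 in 9 each. In goblet cells, for example, Ddit3 was at 40.5, 179, 31.6 and 99.8 CPM and Chac1 at 0.33, 14.0, 2.95 and 17.9 CPM. Not all members did this: Derl3 showed both orders in 0 classes, Sdf2l1 in 1, and Pdia6, Asns and Creld2 in 2 each. Hspa1a and Hspa1b, heat shock genes outside the 30, showed both orders in 9 classes; they were looked at after the data were seen. In T cells, for example, Hspa1a was at 34.3, 122, 36.8 and 165 CPM. These orders were not counted over all genes, and the 12 classes share the same 4 libraries. Over the tested genes of a class, libraries with the same number deviated together, with correlations of 0.16 to 0.55. The pattern is therefore not shown to be particular to the members. The labels give no extraction or sequencing batch, and the part of handling in these values was not tested.

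**Figure D5:**
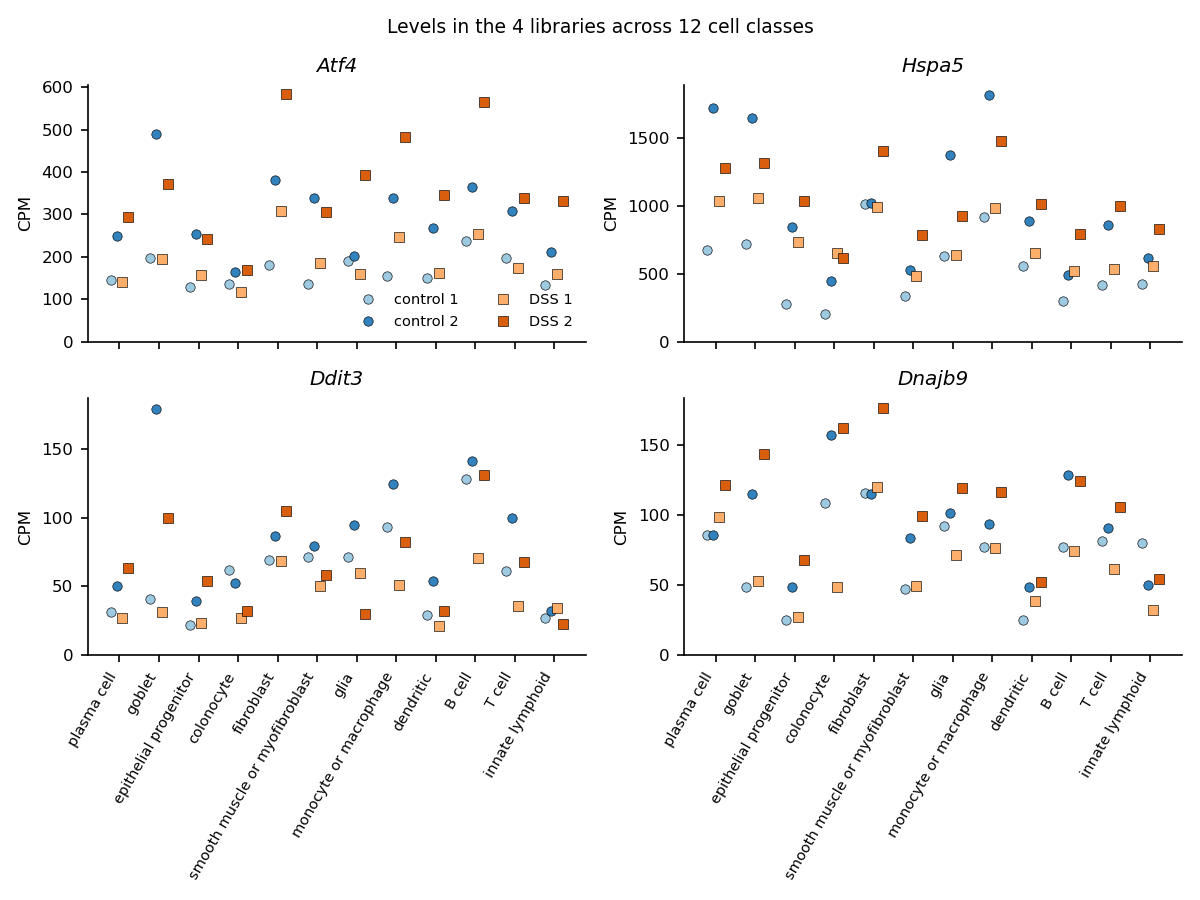
Level in CPM of Atf4, Hspa5, Ddit3 and Dnajb9 in each of the 12 tested classes, with 1 point per library (circles for control, squares for DSS). Atf4 is higher in control 2 than in control 1 and higher in DSS 2 than in DSS 1 in all 12 classes.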

How the data were processed

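The 4 libraries were deposited by the authors as matrices of whole-number UMI counts per gene and barcode, made with Cell Ranger 6.1.1 on GRCm38, per the submitters' processing notes. The labels name both a v3 capture and v2 library reagents, and the kit is not settled here. All 55450 gene rows matched GENCODE M21 by identifier and symbol. Barcodes with at least 500 UMIs, 250 genes and at most 25% mitochondrial UMIs were kept, and predicted doublets (Scrublet, 3.03 to 5.38% of cells a library) were removed after clustering (scanpy 1.11.5, Python 3.11.15; 2000 variable genes, 40 components, 20 neighbours, leiden resolution 1). Files held 101051573 to 109472082 UMIs a library; precision is limited by this depth and by 2 libraries a group, and UMI totals cover counting error only.

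Counts were summed per library and class. DSS was tested against control in each of 12 classes with at least 30 cells in every library, with edgeR 4.0.16 (quasi-likelihood test after filterByExpr and TMM scaling, R 4.3.3), Benjamini-Hochberg adjustment over all genes and a threshold of 0.05; DESeq2 1.42.0 was an alternative. The class-by-group difference was fitted with a library term. Class against class is a description, on log2 of CPM with a pseudocount of 1 and a level limit of 5 CPM. On simulated data the test recovered 91.9% of genes changed by 2 on the log2 scale in goblet cells (12889 genes). In plasma cells it recovered 91.8% (10248 genes). It also called 6 and 5 unchanged genes. The simulation gave every gene the same fixed dispersion, drew libraries independently and changed only genes above a minimum count. Its spread was not that of these libraries, so these shares are not the power of the test here. On the real counts edgeR called 0% of genes in both classes. The members, branches and further lists were chosen with earlier results of these data known. Each member is named with levels; for DSS, those past the threshold or, where none passed, up to 4 per direction with the largest fold change and both DSS libraries on the same side of both controls; from further lists, those past the threshold and a panel of 7 genes. Promoters are from RefSeq (GRCm38.p6) and gene coordinates from GENCODE M21; protein sequences were not used here.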

Additional observations from a re-analysis of the deposited data

Results flagged for a closer look

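The DSS-to-control ratio of 12 members differed between goblet cells and colonocytes by the edgeR class-by-group test, given here as the goblet log2 fold change minus the colonocyte one. It was −1.96 ± 0.22 (SE) for Pdia6, −1.38 ± 0.21 for Manf, −1.33 ± 0.32 for Asns, −1.30 ± 0.19 for Creld2, −1.13 ± 0.21 for Hyou1 and −1.12 ± 0.20 for Pdia4. Smaller differences were −1.02 ± 0.25 for Calr, −0.91 ± 0.23 for Sdf2l1, −0.91 ± 0.23 for Pdia3 and −0.81 ± 0.21 for Xbp1, and the ratio was higher in goblet cells for Dnajb9, 0.95 ± 0.26, and Sesn2, 1.14 ± 0.30. Adjusted p-values lay between 0.00225 and 0.0406, beside 12% of all genes past the threshold. For the 10 negative members, the colonocyte log2 fold change was between 0.45 and 1.67 and the goblet one between −0.40 and 0.10.

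Between plasma cells and colonocytes the ratio differed for Pdia6, −1.52 ± 0.36, and for Ddit3, 1.33 ± 0.31, beside 0.449% of all genes.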

How the results depend on the processing

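For DSS against control, 0 members were called in each of the 12 classes, and this held in 9 of them under every alternative tried. In colonocytes the number called was 6 with no filter on low counts, 4 with DESeq2 and 0 to 3 when 1 library was left out (3 without control 1, 1 without DSS 1 and 1 without DSS 2). In epithelial progenitors it was 0 to 5 (5 without control 2), and in plasma cells 1 with no filter and 0 to 1 with a library left out (1 without DSS 1). Where a library was left out, the lone library of that group was assumed to vary like the other group. Named members that changed sign, none of them called, were Pdia6 (−0.64 to 0.058), Pdia3 (−0.42 to 0.014) and Calr (−0.32 to 0.10) in goblet cells over the libraries left out, turning positive without DSS 2, Dnajc3 in B cells (0.087) and Eif2ak3 in smooth muscle cells (0.063) with doublets kept, and Herpud1 in innate lymphoid cells (0.045) with no filter. The number of members whose DSS effect differed between goblet cells and colonocytes was 7 to 11 with a library left out, and 6 and 7 with colonocytes of a single cluster, an alternative chosen after seeing the data. Against plasma cells it was 0 with other size factors, 1 with no filter, 0 with doublets kept, 0 to 2 with a library left out, 0 with either colonocyte cluster alone and 1 with 1 plasma cell cluster alone; against fibroblasts it was 5 with no filter and 0 to 4 with a library left out (1 without control 1, 4 without control 2). In class against class, without DSS 1 the members lower than in colonocytes numbered 2 in plasma cells (0 to 2 over the libraries left out) and 1 in goblet cells (0 to 1). TMM scaling gave 1 lower member in goblet cells, and 8 higher and 4 lower in fibroblasts, where 1 was lower without immunoglobulin UMIs. Between plasma and goblet cells it gave 22 higher and 1 lower, and 23 and 1 without immunoglobulin UMIs. The cause of these changes was not tested. Of the counts over all alternatives, 34 moved by more than 1.5 times and 208 did not. Adding the members to the clustering genes changed nothing, since none was among them, and with at most 15% mitochondrial UMIs the dendritic class was not found.

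Replicate numbers are shared between the groups, but nothing in the labels says that they pair libraries. With the replicate block 5 members were called in colonocytes (Creld2, Ddit3, Manf, Pdia4 and Pdia6) and 1 in plasma cells (Chac1); libraries with the same number deviated together, with correlations of 0.16 to 0.55 over genes in the 12 classes.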

Other observations

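An epithelial cluster that stayed unnamed (508, 129, 304 and 576 cells in control 1, control 2, DSS 1 and DSS 2) enters no comparison. Of its 27 members at or above a mean of 5 CPM, 12 were higher in both DSS libraries than in both controls (13.3% of all genes at that level) and 1, Ern1, was lower in both (12.4%). Among the 12, named after their values were seen, Manf was at 123, 170.4, 269.7 and 313 CPM, Pdia6 at 108.8, 124, 137 and 164 CPM and Creld2 at 13.5, 26.4, 47.4 and 48.0 CPM. Xbp1 was at 82.96, 166, 188 and 182 CPM, also among the 12, with control 2 close to the DSS libraries, and Hspa5, at 249, 775, 692 and 948 CPM, overlapped between the groups. Manf, Creld2 and Pdia6 are 3 of the genes with the largest DSS differences in colonocytes. No test was run on these cells.

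Enteroendocrine cells, hormone-making cells with 11 to 70 cells a library, gave the members 0.415, 0.633, 0.45 and 0.578% of their UMIs, and lymphatic endothelial cells 0.403, 0.582, 0.483 and 0.61%; neither class was tested. Hspa5 was at 448, 1241, 586 and 1056 CPM in the former.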
